A study of Mus musculus with 3 samples.

Results

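Microglia, the resident macrophages of the brain, carry a set of surface genes while they survey undisturbed tissue, and 8 of these genes are described here across single cells of the mouse subventricular zone. The genes are the purine receptor genes P2ry12 and P2ry13, the growth factor receptor gene Csf1r, the chemokine receptor gene Cx3cr1, and the genes Tmem119, Siglech, Fcrls and Itgb5. They were chosen by name, and all 8 have a row in the table of 16178 genes. The cells are subventricular zone cells of male C57BL/6J mice supplied by Envigo, 8 mice per experiment per the labels' protocols. No treatment, genotype contrast or age is given. Tissue was dissociated with trypsin, and cells carrying GLAST, the astroglial glutamate transporter, were retained on a magnetic column. Myelin was removed in 2 of the 3 experiments, which are not named. Cells went into 3 plates, 1 group of 3 samples, and each cell's autofluorescence, the light it emits without a label, was recorded. The series title ties that light to the state of neural stem cells.

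P2RY12 is the receptor through which microglia sense ADP leaking from damaged cells, and it steers their processes towards an injury. P2RY13 is a closely related ADP receptor that in mice affects how microglia extend processes and survey tissue. CSF1R is the receptor for the growth factors CSF1 and IL-34, on which microglia depend to survive. CX3CR1 receives fractalkine, a chemokine displayed by neurons. TMEM119 is a transmembrane protein used to tell microglia from other macrophages. Siglec-H is a member of the family of sialic acid-binding lectins and signals through the adaptor encoded by Tyrobp. Fcrls encodes an Fc receptor-like scavenger protein. ITGB5 is an integrin subunit that pairs with the alpha V subunit. These genes as a set are known to be lowered when microglia respond to injury or disease.

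The plates kept 43, 45 and 61 cells with 297573, 413728 and 478504 estimated transcripts. The samples are labelled as neural stem cells, but the authors' cluster 1, with 9, 18 and 9 cells on plates 1 to 3, had the highest level of 11 of the 11 microglial markers with a row, a list that leaves out the 8 genes. Their summed level was 32982 CPM in cluster 1 (estimated transcripts scaled to a total of 1000000) and 700 CPM or less in each other cluster. Cluster 1 is called microglia-like here. None of the 9 border macrophage and monocyte genes with a row, such as Mrc1, Pf4 and Ccr2, had a transcript in cluster 1. None had one in the other kept cells either, so their absence does not set cluster 1 apart. Clusters 0 and 2 were oligodendrocyte-lineage-like, cluster 3 was like astrocytes or quiescent stem cells, and cluster 4 was like dividing stem cells or progenitors. The plates reuse well barcodes, and 50 of the 86 barcodes among kept cells occur on more than 1 plate. Each cell gave few transcripts in cluster 1, with medians of 3497, 3673 and 2469 on plates 1 to 3. Cluster 1 was the brightest, with a median autofluorescence of 4896 units over all plates. The medians were 1367, 1022, 1826 and 1184 units in clusters 0, 2, 3 and 4.

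One cell of cluster 1 on plate 1 stands apart and bears on several values. It had 0 transcripts of all 8 genes, 4 transcripts of the 11 microglial markers and 16 of the 8 endothelial or mural markers, among 1616 transcripts in all. Its autofluorescence of 218 units was the lowest in cluster 1, whose medians were 4929, 5397 and 3950 units. The plate 1 correlations of each gene with autofluorescence are given with and without it, as is the mean over all pairs of genes.

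The 2 purine receptor genes are neighbours. P2ry13 lies at chr3:59207892-59210882 and P2ry12 at chr3:59216272-59262871, both on the minus strand of GRCm38 in GENCODE M21, with 5389 bases between them. Both lie inside Med12l, which runs on the plus strand. Med12l had 2 transcripts in all of cluster 1, and P2ry14, another purine receptor gene of the locus, had 0. The 250 bases before each RefSeq gene start (GRCm38.p6, minus strand) are shown because the locus holds 2 of the 3 genes that fell in a comparison given later. P2ry12 is shown from chr3:59262986-59263235 and P2ry13 from chr3:59210883-59211132. Capitals mark GAGGAA or GGAAGT, 2 forms of the core that ETS factors bind, the family of the myeloid regulator PU.1, searched on both strands. The 2 forms can overlap.
P2ry12: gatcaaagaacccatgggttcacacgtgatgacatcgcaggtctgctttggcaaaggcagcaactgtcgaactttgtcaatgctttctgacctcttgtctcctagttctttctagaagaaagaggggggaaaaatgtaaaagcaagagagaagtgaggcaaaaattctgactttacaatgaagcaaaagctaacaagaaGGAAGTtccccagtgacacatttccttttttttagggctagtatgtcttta
P2ry13: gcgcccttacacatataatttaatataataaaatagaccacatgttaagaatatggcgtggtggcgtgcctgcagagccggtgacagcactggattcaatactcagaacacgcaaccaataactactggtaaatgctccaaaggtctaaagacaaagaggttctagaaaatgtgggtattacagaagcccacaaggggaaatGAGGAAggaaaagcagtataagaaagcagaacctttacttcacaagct
The P2ry12 window holds GGAAGT beginning 51 bases before the start, and the P2ry13 window holds GAGGAA beginning 48 bases before it. Of 32851 such windows in the RefSeq table, 23.3% hold GAGGAA and 19.7% hold GGAAGT. Among the 6 of the 8 genes with a window, GAGGAA occurs for P2ry13 and Fcrls, and GGAAGT for P2ry12, Fcrls and Siglech. The match is a description of these letters only.

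Of the other genes, Fcrls lies at chr3:87250758-87263738, Tmem119 at chr5:113793729-113800516, Siglech at chr7:55768178-55778925, Cx3cr1 at chr9:119901616-120069879, Itgb5 at chr16:33829665-33949338 and Csf1r at chr18:61100598-61132149. The use of strand in counting, not given in the sources used here, matters for P2ry12, P2ry13, Cx3cr1 and Csf1r, which overlap genes on the other strand and could share reads with them. The long Cx3cr1 annotation also overlaps Gorasp1, Csrnp1 and Xirp1 on its own strand.

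The 8 genes together made up 1.90%, 2.32% and 2.08% of the transcripts of cluster 1 on plates 1 to 3. Levels here are transcripts counted by molecular identifiers near the end of the RNA, so they are not divided by gene length. Csf1r stood highest at 5642 ± 683 CPM in cluster 1 (SD, n = 3 plates), with 5643, 6324 and 4958 CPM on plates 1 to 3. P2ry12 had 3477, 4372 and 3616 CPM and Cx3cr1 had 3138, 3472 and 4200 CPM. Csf1r was above both on every plate, while P2ry12 and Cx3cr1 changed places between plates.

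Siglech had 1787, 2816 and 1889 CPM, below Cx3cr1 on every plate. The remaining 4 genes were close together, with means of 1586 ± 575 CPM for Fcrls, 1570 ± 246 for Tmem119, 1323 ± 301 for Itgb5 and 1305 ± 211 for P2ry13 (SD, n = 3). Their order differed from plate to plate, and their ranges over plates overlap. Of these 4, Fcrls ranged most between plates, from 944 CPM on plate 1 to 2053 CPM on plate 2.

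The transcripts lay almost wholly in cluster 1, and the clusters were drawn by the authors from these same values, so this is a description with no test. Of all transcripts of the 8 genes, 6.18% came from the 113 cells of the other clusters. The pooled level was 638-fold higher in cluster 1 than in the other cells for Siglech, 214-fold for P2ry12, 106-fold for Csf1r and 63.3-fold for P2ry13. P2ry12 was detected in 35 of 36 cells of cluster 1, at a median depth of 3455 transcripts per cell. In the oligodendrocyte-lineage-like clusters, where it should be lacking, it was detected in 3 of 42 cells of cluster 0 at a median depth of 9530 and in 4 of 35 cells of cluster 2 at a median depth of 8615. The latter share of 11.4% (exact 95% binomial interval 3.20 to 26.7%, counting error only) is read here as background.

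Outside cluster 1 the pooled level was highest in cluster 3 for 7 of the 8 genes, Siglech being the exception, but for Cx3cr1 and Fcrls this rested on 1 cell. Plate 1 gave 25 of the 30 cells of cluster 3, and Csf1r stood at 176 CPM there, in part from the cell described next. Csf1r was at 0 in the 4 cells of plate 3, but these held 22306 transcripts in all, against 130788 on plate 1. A difference between plates is thus not shown. A single cell of cluster 3 had transcripts of 7 of the 8 genes, 23 in all, and 1780 CPM of C1qb, a complement chain made by microglia. Without that cell, the pooled level in cluster 3 was 0.988% of the cluster 1 level for P2ry12, 1.57% for Csf1r, 2.90% for P2ry13 and 5.90% for Itgb5. Without it Fcrls was at 0 in cluster 3, against 9.92 CPM in cluster 4, and Cx3cr1 at 46.4 CPM, against 49.6 CPM in cluster 4. Whether that cell is a doublet was not tested.

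Relative to its cluster 1 level, Itgb5 was the highest of the 8 genes in cluster 3, at 6.70% with the cell just described. It was detected in 10 of 30 cells (33.3%, exact 95% binomial interval 17.3 to 52.8%) at a median depth of 4192 transcripts, and in 9 of 29 without that cell. In cluster 0, at a median depth of 9530, Itgb5 was detected in 6 of 42 cells (14.3%, 5.43 to 28.5%), and in cluster 2, at a median depth of 8615, in 1 of 35 cells (2.86%, 0.0723 to 14.9%). The intervals of clusters 3 and 0 overlap, and those of clusters 3 and 2 do not. They hold counting error only, and no test was run. Siglech was at the other end, with 0 transcripts in cluster 3, where 3 transcripts would be 19.1 CPM, against 2402 CPM pooled in cluster 1.

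**Figure D1:**
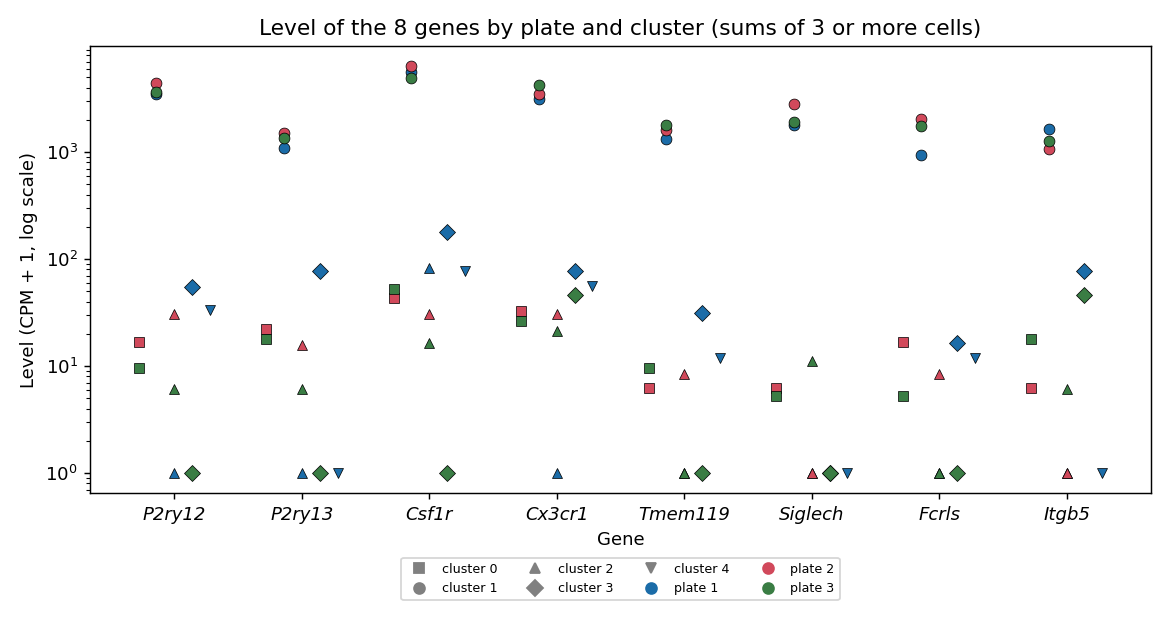
Level of each of the 8 genes (CPM + 1, log axis) for sums of 3 or more cells, with marker shape for the cluster and colour for the plate. The cluster 1 circles lie between 944 and 6324 CPM for all 8 genes, and the highest point of any other cluster is Csf1r in cluster 3 of plate 1 at 176 CPM.

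Ligands and partners of these receptors were read from a list of 19. Of the 19, all have a row, and 2, Gnai2 and Tyrobp, passed the filter on low counts within cluster 1. Tyrobp, the adaptor of Siglec-H, had 834 CPM in cluster 1, in 31 of 36 cells. Entpd1, an enzyme that degrades extracellular ATP and ADP, had 566 CPM, in 23 cells. Itgav, the alpha V integrin, had 212 CPM, with 27 transcripts in cluster 1 and 108 in the other cells. Among the ligands, Csf1 had 1 transcript in cluster 1 and 59 in the other cells, Cx3cl1 0 and 1, and Il34 0 in both.

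The 8 genes differed in how evenly the cells of cluster 1 carried them. P2ry12 was the most uneven in number of transcripts. On plate 3 its level ran from 405 to 11142 CPM with a median of 2452 over 9 cells, and on plate 2 from 608 to 9908 CPM with a median of 3506 over 18 cells. On plate 1, where the cell that lacks all 8 genes is at 0, the median was 2520 and the highest 7997 CPM. The index of dispersion is the variance of a cell's transcripts around the expected number, divided by that of counting error alone. The expected number is the gene's share in the plate's cluster 1 cells times the cell's own total. For P2ry12 the index was 6.47 without the cell that lacks all 8 genes (5.77, 5.39 and 9.35 on plates 1 to 3). An index of 1 is counting error alone.

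Itgb5, at 1.00, varied no more than counting error, with 0.606, 1.29 and 0.736 on the 3 plates. Tmem119 had 1.59, 1.48 and 1.47 on plates 1 to 3. The pooled index was 2.48 for Siglech, 2.53 for Csf1r, 2.77 for Fcrls, 3.31 for P2ry13 and 4.16 for Cx3cr1. The index grows with the number of transcripts, so it was also turned into an approximate coefficient of variation beyond counting error. That was 0.681 for P2ry13, 0.612 for P2ry12, 0.529 for Fcrls and 0.497 for Cx3cr1, against 0.268 for Csf1r, 0.298 for Tmem119 and 0.411 for Siglech. The complement chain genes C1qa, C1qb and C1qc had 0.0944, 0.308 and 0.254, and the protease gene Ctss 0.360. The 2 purine receptor genes, Fcrls, Cx3cr1 and Siglech thus had higher values than these 4 comparison genes. Csf1r, Tmem119 and Itgb5 were below C1qb and Ctss. The comparison genes are named here for reference and no test was run against them. With the cell included, the index was 6.52 for P2ry12 and 1.06 for Itgb5.

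**Figure D2:**
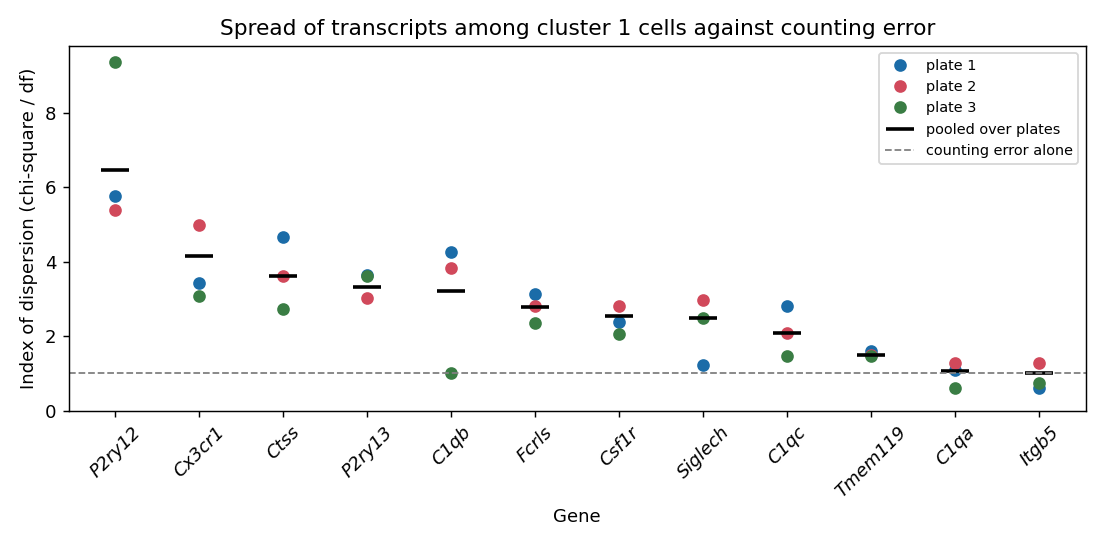
Index of dispersion of transcripts among the cells of cluster 1 (without the 1 cell that lacks all 8 genes) for the 8 genes and 4 other microglial genes, per plate (points) and pooled (bars), with a dashed line at counting error alone. P2ry12 lies highest at 6.47 and Itgb5 lowest at 1.00.

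Over the cells of a plate, Spearman's rho between the levels of 2 genes averaged 0.182 over the 28 pairs, with 0.317, 0.229 and 0.000371 on plates 1 to 3 (9, 18 and 9 cells). Without the cell that lacks all 8 genes the mean for plate 1 was 0.0349 and the mean over plates 0.0881. These are descriptions over cells that share a library, and all levels share each cell's total as divisor. Counting error limits rho at these depths, most of all for pairs with Itgb5 or Tmem119, which varied little beyond it.

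The pair with the highest mean rho was Csf1r with Cx3cr1, at 0.417, 0.608 and 0.333 on plates 1 to 3, and 0.167 on plate 1 without that cell. P2ry12 with Fcrls followed, at 0.650, 0.0815 and 0.577. Without that cell their order turned, with mean rho 0.369 for Csf1r with Cx3cr1 and 0.386 for P2ry12 with Fcrls. With each cell thinned to 1200 transcripts the highest pair was Siglech with Fcrls, at a mean of 0.622, against 0.343 and 0.114 for those pairs, so the order of pairs is not firm. The neighbours P2ry12 and P2ry13 had 0.293, 0.362 and -0.167, a mean of 0.163. That mean was 0.0811 without the cell and 0.514 with thinned cells, so no firm value can be given for the neighbours. The pair P2ry13 and Siglech changed sign most widely, from 0.465 on plate 2 to -0.800 on plate 3.

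The genes whose levels ran most closely with P2ry12 over these cells, by the mean rho within plates among 538 genes detected in at least 18 cells of cluster 1, were Zfhx3 (mean rho 0.631), Calm2 (0.611), Cd164 (0.594), C1qc (0.559) and Fcgr3 (0.544). Zfhx3 encodes a homeobox transcription factor, Calm2 calmodulin, Cd164 a sialomucin and Fcgr3 an Fc receptor. Without the cell that lacks all 8 genes the 5 values were between 0.473 and 0.597. For the summed level of the 8 genes they were Gabarap (0.519), Srsf3 (0.519), Fscn1 (0.507), Sparc (0.507) and Rasgrp3 (0.476). The median gene had 0.0630 to P2ry12 and 0.0539 to the sum. The 5 genes of each set are the highest of 538, so selection alone raises their values, and how far was not tested.

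Whether the 8 genes went with autofluorescence inside cluster 1 was asked in 2 ways, over cells and over sums per plate. Over cells, no gene had the same sign of rho on all 3 plates. P2ry12 had 0.267, -0.519 and -0.233 on plates 1 to 3, and P2ry13 had -0.201, -0.424 and 0.250. Without the cell that lacks all 8 genes, the plate 1 values were -0.0476 for P2ry12 and -0.643 for P2ry13, so P2ry12 was then below 0 on every plate and P2ry13 still was not. Siglech, at -0.286 on plate 1 without that cell, was then also below 0 on every plate.

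Cx3cr1 ran from 0.667 on plate 1 (0.524 without the cell) to -0.412 on plate 2 and 0 on plate 3. Fcrls had 0.533 (0.333 without the cell), 0.247 and -0.0837, and Itgb5 had 0.150 (-0.214 without the cell), 0.399 and -0.0667. Csf1r had -0.100, -0.0547 and 0.317, and without the cell -0.571 on plate 1. Tmem119 had -0.0833 (-0.548 without the cell), -0.197 and 0.500, and Siglech 0.100, -0.0485 and -0.350. The summed level of the 8 genes had -0.0500, -0.329 and 0.233. A cell's total of transcripts had 0.0333, 0.00516 and -0.383 with autofluorescence. Both plate 1 values, -0.0500 and 0.0333, include the cell that lacks all 8 genes and were not computed without it. That cell has a summed level of 0 and the lowest autofluorescence in cluster 1, so these 2 values may turn on it.

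**Figure D3:**
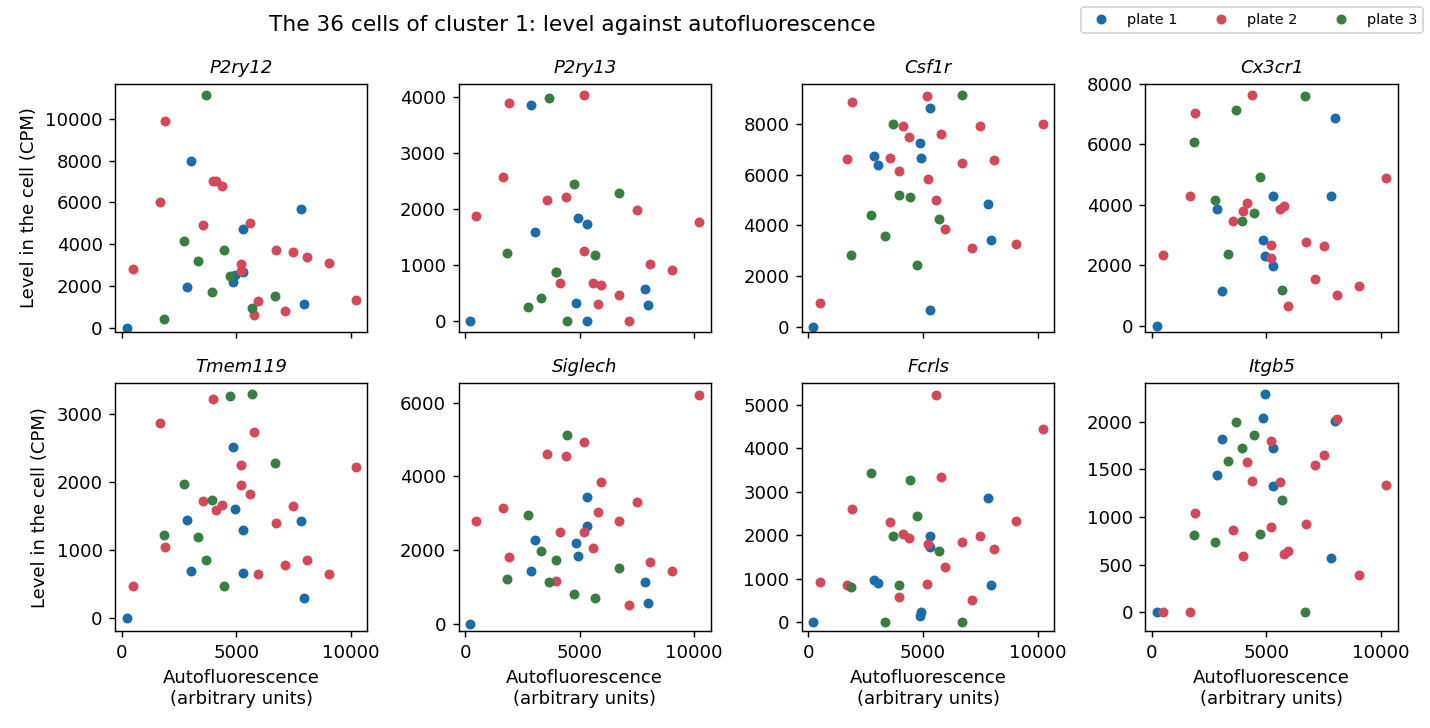
Level (CPM) against autofluorescence (arbitrary units, linear) in each of the 36 cells of cluster 1, 1 panel per gene, coloured by plate. The cell of plate 1 at 218 units is at 0 CPM in all 8 panels, and the 4 highest P2ry12 values, 7043 to 11142 CPM, lie in cells of 3970 units or less.

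Over sums, cells brighter than the cluster 1 median of their plate (high, 4, 9 and 4 cells) were set against the others (low, 5, 9 and 5 cells), with plate in the fit. P2ry12 had 3601, 2780 and 1901 CPM in high cells of plates 1 to 3, against 3406, 5755 and 4646 CPM in low cells. High cells were lower on plates 2 and 3 and slightly higher on plate 1, and the 2 classes overlap across plates. Its log2 change was -0.70 (SE 0.32, n = 3 plates, edgeR quasi-likelihood adjusted p = 0.999). Leaving out 1 plate each gave values from -1.17 (plate 1 left out) to -0.47 (plate 3 left out).

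P2ry13 had 645, 847 and 1230 CPM in high against 1328, 2057 and 1411 CPM in low cells. It was lower in high cells on 3 of 3 plates, with a log2 change of -0.84 (SE 0.46, n = 3, edgeR adjusted p = 0.999). Fcrls had 1845, 2516 and 1901 CPM in high against 425, 1651 and 1680 CPM in low cells. It was the only one of the 8 with a positive log2 change, 0.89 (SE 0.41, n = 3, edgeR adjusted p = 0.999), and was higher in high cells on 3 of 3 plates. The low plate 1 value rests on 8 transcripts, and without plate 1 the change of Fcrls was 0.40.

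Csf1r had 4618, 5418 and 4925 CPM in high against 6234, 7111 and 4978 CPM in low cells, lower on 3 of 3 plates though on plate 3 by a ratio of 0.989. Its log2 change was -0.24 (SE 0.29). Cx3cr1 had 4803, 2281 and 3243 CPM in high against 2179, 4506 and 4775 CPM in low cells, with ratios of high to low of 2.20 on plate 1 and 0.506 on plate 2, and a log2 change of -0.14 (SE 0.33). Tmem119 had -0.12 (SE 0.41), Siglech -0.21 (SE 0.38) and Itgb5 -0.04 (SE 0.44), each with plates on both sides. All 8 genes had an edgeR adjusted p of 0.999.

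All 8 genes passed the filter on low counts, and 0 of them passed the threshold, as did 0% of the 210 genes tested. At an unadjusted p under 0.05 edgeR had 2 of the 210, which were P2ry12 and Fcrls with 0.0303 and 0.0299. That is a smaller share than the 0.05 of genes expected with no change at all, and the 2 changes have opposite signs. DESeq2 called 0 of the same genes (0 unadjusted), and limma with equal weight for each cell called 0 of 3781 (76 unadjusted). The median log2 change was -0.17 for the 8 genes and 0.03 for all genes tested. With 3 plates and sums of 8949 to 39420 transcripts, these differences were not detectable beyond the spread between plates; that does not show that the genes did not differ.

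**Figure D4:**
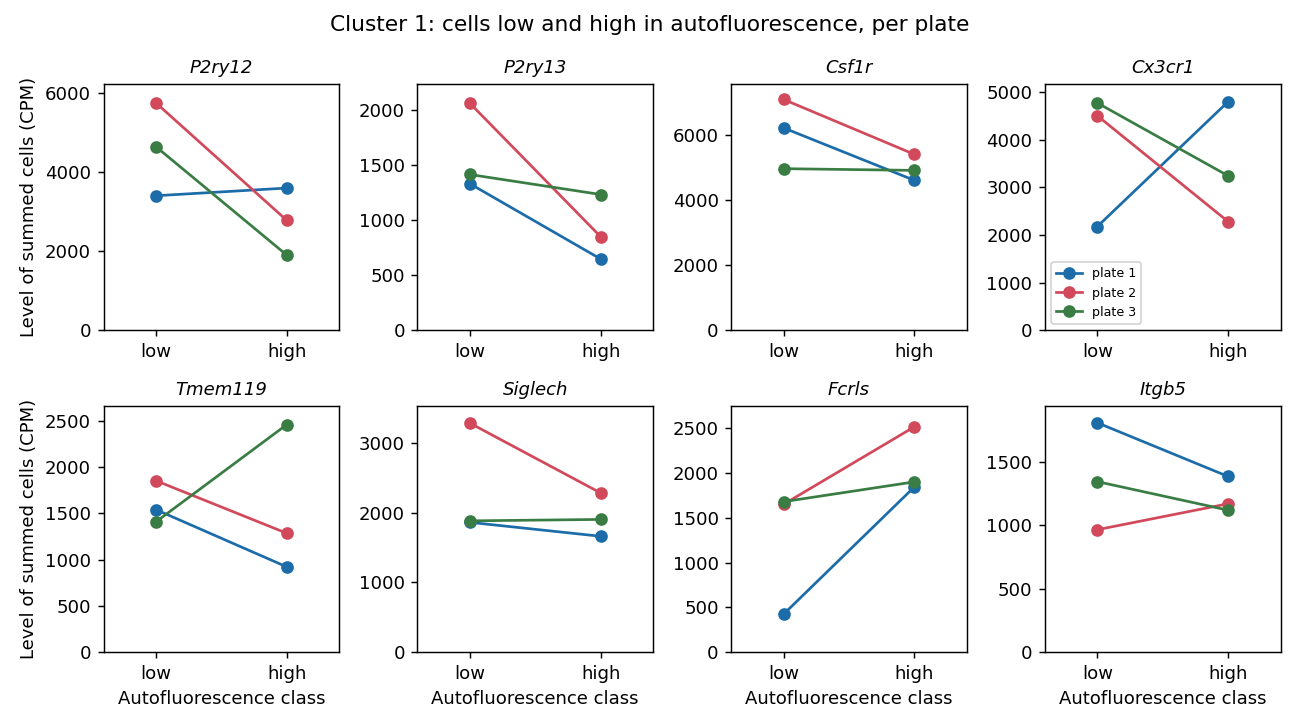
Level (CPM) of each gene in the summed low and high autofluorescence cells of cluster 1, with a line per plate and axes from 0. The lines of P2ry13 and Csf1r fall on 3 of 3 plates, those of Fcrls rise on 3 of 3, and the other 5 genes have lines in both directions.

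Other features moved with the classes, 2 of them the same way on 3 of 3 plates. High cells had fewer transcripts at the median, 2911 against 4370 on plate 1, 3291 against 3853 on plate 2 and 1732 against 2517 on plate 3. Their median percent of mitochondrial transcripts was higher, 2.20 against 1.59, 2.02 against 1.38 and 1.51 against 1.35. Cells that the authors' phase calls put in G0 were 2 of 4, 5 of 9 and 3 of 4 high cells and 0 of 5, 2 of 9 and 4 of 5 low cells. The 12 oligodendrocyte markers summed to 461, 4324 and 7829 CPM in high and 796, 5036 and 4767 CPM in low cells, and the 12 astrocyte or quiescent stem cell markers to 3965, 2425 and 4247 against 2867, 2868 and 3961 CPM. The 13 dissociation response genes, such as Jun and Egr1, summed to 11717, 11842 and 11086 CPM in high and 6906, 10062 and 11759 CPM in low cells. Their part in the results was not tested.

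Other genes of microglia gave no call. Of 12 tested genes of the 20 other homeostatic microglial genes, 6 had a positive and 6 a negative log2 change, with a median of -0.03 and 0 past the threshold. Cst3, a protease inhibitor, had 0.11 and Sparc, a matrix protein, 0.16. Of 8 tested genes of the 25 listed for activated or disease-associated microglia, 0 passed, with a median of 0.04: Ctsd had 0.27, Ctsb 0.06 and B2m -0.42.

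Of 6 tested lysosome genes of 18 listed, 0 passed, with a median of 0.24, and of 6 tested dissociation genes of 13, 0 passed, with a median of 0.37. Of 2 tested myeloid transcription factor genes of 10 listed, 0 passed, and Irf8 had -0.08. Tyrobp had 0.13 and Gnai2, an inhibitory G protein subunit of the kind P2RY12 couples to, 0.13. Of the 9 tested microglial markers 0 passed, with a median of 0.10, and C1qb stood at 6634 ± 288 CPM in high against 6490 ± 957 CPM in low cells (SD, n = 3).

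A comparison over all cells asked a different question and gave a more negative value for each of the 8 genes. There a cell was high when above the median of its own plate and cluster, and all cells of a class were summed, so that cluster 1 was scaled together with the others. Cluster 1 cells kept the classes they had before, and 6.18% of the transcripts of the 8 genes came from other clusters. A level there is thus a share of a total that came mostly from other clusters. Of the 8 genes, 3 fell, P2ry12, P2ry13 and Csf1r, against 0.0879% of the 3412 genes tested, 3 genes in all. Their log2 changes were -1.55, -1.49 and -1.13, against -0.70, -0.84 and -0.24 in cluster 1 alone. The 3 calls are known from earlier results of these data and are not separate support.

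The other 5 genes had -1.05 for Cx3cr1 (SE 0.29, edgeR adjusted p = 0.0931), -1.03 for Tmem119 (SE 0.32, 0.217), -1.02 for Siglech (SE 0.29, 0.119), -0.66 for Itgb5 (SE 0.33, 0.705) and -0.03 for Fcrls (SE 0.32, 0.9998), with n = 3 plates. In these sums Cx3cr1 had 406, 384 and 110 CPM in high cells of plates 1 to 3 against 374, 1007 and 424 CPM in low cells, and was lower on 2 of 3 plates. The share of transcripts that came from cluster 1 was 7.58%, 15.5% and 3.06% in high cells on plates 1 to 3 and 14.1%, 22.0% and 7.99% in low cells; its part in the result was not tested. Each of the 8 genes had a more negative value than in cluster 1 alone. The difference between the 2 comparisons was not tested, since they share cells.

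The calls of P2ry12, P2ry13 and Csf1r held without plate 1, where P2ry12 had -1.90, and all 3 were lost without plate 2 (P2ry12 -1.56, edgeR adjusted p = 0.168), without plate 3 (-1.18, 0.531), with DESeq2 (-1.57, 0.451), without plate in the fit (-1.42, 0.9995) and with equal weight for each cell (-0.71, limma adjusted p = 0.933). Without the low-count filter P2ry12 alone kept its call, and P2ry13 and Csf1r had edgeR adjusted p-values of 0.0822 and 0.0858. With cells thinned to equal totals P2ry12 had -0.80 (edgeR adjusted p = 0.705) and Csf1r -0.31 (0.896), P2ry13 was not tested, and with equal weight for each cell Csf1r had -0.26. Calls were gained for Cx3cr1 with RLE size factors (-1.04, edgeR adjusted p = 0.0404) and without plate 1 (-1.62, 7.8e-06), and for Siglech without plate 1 (-1.06, 0.0409).

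**Figure D5:**
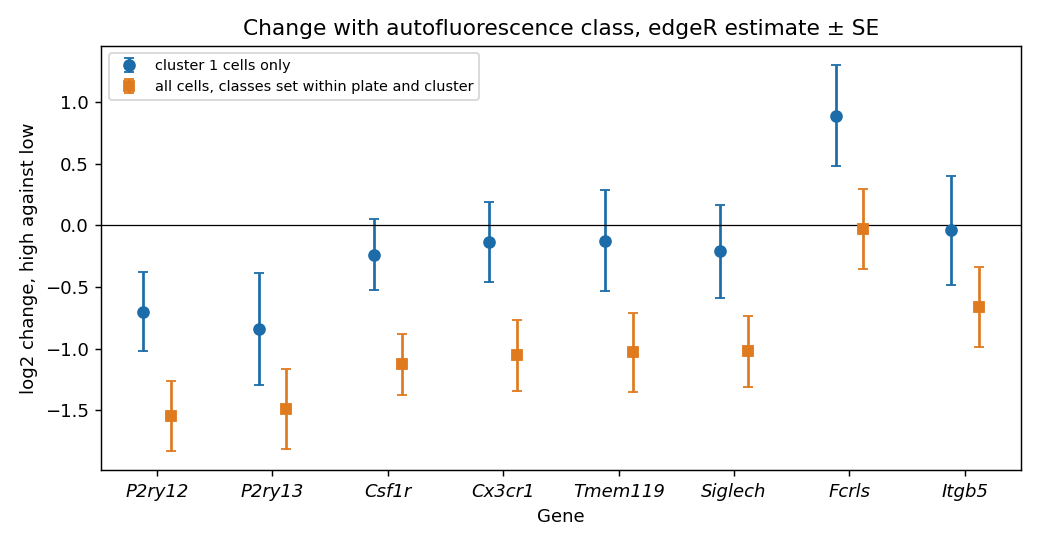
Log2 change of each gene from low to high autofluorescence (edgeR estimate with an SE derived from its F statistic). Blue circles are cluster 1 cells alone, and orange squares are all cells with classes set within plate and cluster. Each square lies below its circle, P2ry12 at -1.55 against -0.70 and Fcrls at -0.03 against 0.89.

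The authors' phase calls within cluster 1 rest on the same expression values, so levels by phase are given without a test. The summed level of the 8 genes was 14390, 18843 and 20302 CPM in cells called G0 on plates 1 to 3 (2, 7 and 7 cells) and 21344, 26749 and 22644 CPM in cells called G1 (5, 10 and 2 cells). Csf1r had 2598, 4705 and 4779 CPM in G0 against 6695, 7348 and 5570 CPM in G1. Tmem119 and Siglech were also higher in G1 on 3 of 3 plates, while P2ry12, P2ry13, Cx3cr1, Fcrls and Itgb5 had plates in both directions.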

How the data were processed

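Estimated counts of transcripts per gene and cell were deposited by the authors, who made them from molecular identifiers. When the correction for colliding identifiers was inverted, 100% of the 349688 values above 0 came out whole (tolerance 1e-06). Per the submitters' processing notes, the tools include Seurat 4.1.1, R 4.2.0 and BWA 0.7.15; mm10 and hg19 are both listed as builds, with no role. Annotation: not given in the sources used here. Also as deposited are an autofluorescence intensity per cell (arbitrary linear units), the count of genes per cell, the percent of mitochondrial transcripts, phase calls and cluster numbers; 11 columns of the table per cell were not used. Plates were matched to samples by the last digit of the library name. Whether plates came from separate animals or cultures beyond the 3 experiments is not stated.

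Transcripts were summed per plate and class, rounded, and fitted over all genes with edgeR 4.0.16 in R 4.3.3 (TMM scaling, filterByExpr, quasi-likelihood F test, plate as block, Benjamini-Hochberg at 0.05). Each SE printed with an edgeR change is the absolute log2 change divided by the square root of the F statistic. It is unstable for changes near 0. DESeq2 1.42.0 and limma 3.58.1 (log2 of mean CPM + 1) were alternatives. The scripts were tested on simulated data. Same-numbered classes come from the same plate, so plate pairs them. Sums, not cells, are replicates; correlations over cells carry no p. No doublet caller was run. Thinning took each cell to 1200 transcripts and left out 0 cells. The 8 genes and the lists were chosen with earlier results of these data known. Besides the 8, genes were named if past the threshold, if among the 3 highest in cluster 1 of a list, or if among the 5 most alike in pattern; some that this rule names are not reported here.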

Additional observations from a re-analysis of the deposited data

Results flagged for a closer look

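The 86 wells that the authors left out of the filtered table, with 28702 transcripts in all, held transcripts of the 8 genes, which no comparison used. Csf1r had 16 transcripts there, Cx3cr1 had 9 and P2ry12 had 7, each above the 3 that a count of 0 allows. As levels these were 558, 314 and 244 CPM, against 55.5, 35.8 and 18.8 CPM in the kept cells outside cluster 1 and 681, 409 and 447 CPM in all kept cells. The other 5 genes had 2 or 3 transcripts each. Of the 86 wells, 27 held at least 1 of the 8 genes and 1 held 4 of them. The 3 plates are too few for a test of single plates that stand apart.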

How the results depend on the processing

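Within cluster 1, 0 genes were called in either direction under every alternative run. No change of the 8 genes was called there, and the signs of P2ry12, P2ry13, Csf1r and Fcrls held in each alternative that tested them. Reversed signs, none past the threshold, were 0.095 for Cx3cr1 and 0.11 for Siglech with equal cell weight, 0.086 for Tmem119 and 0.23 for Itgb5 with cells of middle autofluorescence left out, while leaving out 1 plate each gave -0.81 to 0.31 for Cx3cr1, -0.55 to 0.079 for Tmem119 and -0.31 to 0.038 for Itgb5. Over all cells, genes higher and lower in high cells were 4 and 16 with RLE size factors and 1 and 2 without the low-count filter; 0 were higher or lower with DESeq2 (74 at an unadjusted p under 0.05), with no replicate block (40), with thinned cells (12) and with equal cell weight (143). Leaving out 1 plate each gave 0 to 5 higher and 0 to 18 lower. Fcrls there reversed to 0.020 without the filter, 0.071 with no replicate block and 0.89 with equal cell weight and ranged from -0.31 to 0.41 leaving out 1 plate each, and Siglech reversed to 0.045 with equal cell weight; the cause was not tested. Mean correlations with autofluorescence moved with Pearson's r of log values to 0.237 for P2ry12, 0.613 for Csf1r, 0.468 for Tmem119, 0.221 for Siglech and 0.412 for Itgb5, and the mean over pairs of genes to 0.369. Without the cell that lacks all 8 genes, an alternative chosen after seeing the data, these were -0.140, 0.226, 0.0820, -0.232, -0.00532 and 0.0921. Depth limits what can be seen: in cluster 1 the filter left 210 genes, and thinned cells left P2ry13, Tmem119 and Itgb5 untested.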
